A study of Danio rerio with 4 samples.

Results

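Hif-1α ChIP-seq of *vhl* mutant zebrafish gave 5177 peaks, all of those that the authors called on the *vhl* ChIP library against the *vhl* input library. They make up 5177 of the 6457 peaks of the series, and the other 1280 come from wild-type embryos. The mutants were homozygous for the *vhl* hu2117 allele, came from an incross of carriers on a mixed TL/LWT background, and also carried the *phd3*:gfp i144 transgene, a bacterial artificial chromosome in which the *egln3* (*phd3*) locus drives a green fluorescent reporter of hypoxia signalling. Fluorescence was used to pick the mutants from their siblings. Embryos were grown at 28C to 4 days post fertilisation (dpf), de-yolked and pooled, so that each library stands for 1 pool of whole embryos with all of its cell types. The ChIP used a custom antiserum against fish Hif-1α, and the input was chromatin without immunoprecipitation. The wild-type embryos were of the same strain mix and age.

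HIF is a dimer of an oxygen-sensitive α subunit and a stable β subunit. In oxygen, prolyl hydroxylases (the PHD enzymes, of which *egln3* encodes one) mark the α subunit, pVHL binds the marked protein, and it is degraded. Without pVHL the α subunit persists, and the dimer binds hypoxia response elements, whose core is RCGTG, at genes of glycolysis, blood vessel growth, red cell production and its own feedback.

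Genome coordinates in the study's ChIP-qPCR primer list and browser views placed 23 genes beside peaks, 20 of them as tested peaks of this list, and *egln3*, *tiparp* and *mir22a-1* by a further primer pair or a view. The study ties more genes to peaks by distance from a start site or in words, and those were not used here, because the coordinates of start sites in Zv9 were not at hand. All 23 names were found in RefSeq, 18 as a symbol and 5 as a synonym. Primers are the only sequences at hand for these regions, and they are shown for the 3 regions with a core motif in a primer and for *gapdhs* and *pfkfb3*, which are among the richest in tags. The 2 spellings of the core (ACGTG and GCGTG) and their reverse complements (CACGT and CACGC) were searched in every primer and are set in capitals, and all other bases are in lower case, 5′ to 3′.
*kdm5c* forward: gccactagttgtcgctaccc
*kdm5c* reverse: aaACGTGgtctgcatatcgt
*znf292b* forward: ttgttcagtgtgagaggaggag
*znf292b* reverse: aaatcactgtGCGTGctgac
*jupa* forward: ggtgcctACGTGtgtccttt
*jupa* reverse: tttgtcctcccgtctctcac
*gapdhs* forward: ccttcgtgatggattgctc
*gapdhs* reverse: ctcacctccttcagtgatgct
*pfkfb3* forward: tttgcagcttaaagacccttg
*pfkfb3* reverse: agggaatgggtggcagtag
Of the 48 primers, 3 held the core (6.25%, 95% Wilson interval 2.15 to 16.8%), those of *kdm5c*, *znf292b* and *jupa*. All 3 were among the 42 primers of peak regions, and 0 of the 6 primers of control regions held it. How often a primer would hold the core by chance was not tested, so these counts do not set peak regions apart from control regions. The letters between the primers were not searched, so a primer without the core says nothing of the peak.

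Uniquely mapped reads numbered 33429235 in the *vhl* ChIP and 13834669 in its input. The peak caller kept 1 read at each position, called a tag, which left 16145214 tags (48.3%) of the ChIP and 8584659 (62.1%) of the input. Peaks held 360746 of the ChIP tags, 2.23% of those kept. With 1 library of each kind there are no replicates and no test between conditions. The intervals below are 95% intervals that treat peaks as independent, or tags in the case of shares of tags. They do not cover variation between libraries. The *vhl* genotype and the makeup of the tissue cannot be read from a list of peaks. An FDR of at most 5%, estimated by the authors' caller, was given to 3990 of the 5177 peaks (77.1%).

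Peaks lay on all chromosomes from 1 to 25, at 3.84 per Mb between the outermost summits of each chromosome (interval 3.73 to 3.94). The most peaks were on chromosomes 3 and 5, with 266 each, and the fewest on chromosome 25, with 142. Density was highest on chromosome 19, at 5.01 peaks per Mb (interval 4.41 to 5.67), and lowest on chromosome 4, at 2.62 (interval 2.23 to 3.07), a ratio of 1.91. Chromosomes 11, 18, 19 and 21 had intervals wholly above the density of the genome, and chromosomes 4, 7 and 9 had intervals wholly below it. These intervals assume independent peaks. Counts per Mb varied more than that, as given further on, so the intervals are too narrow.

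The low value of chromosome 4 came from 1 empty stretch. From the summit at 29272088 to that at 59374648 there was no peak for 30.1 Mb. The 29.3 Mb before that gap held 153 peaks, a density of 5.23 per Mb (interval 4.43 to 6.13), and 5 peaks lay beyond it, with a median of 33 tags. When the longest gap of every chromosome was taken out of its length, chromosome 4 moved to 5.25 peaks per Mb, second to chromosome 19 at 5.34, and chromosome 9 became lowest at 3.10. Only uniquely mapped reads were used. The wild-type list, also made from uniquely mapped reads, has a few peaks of 6 to 11 tags in this stretch. How much of the stretch reads could be mapped to uniquely was not tested.

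**Figure D1:**
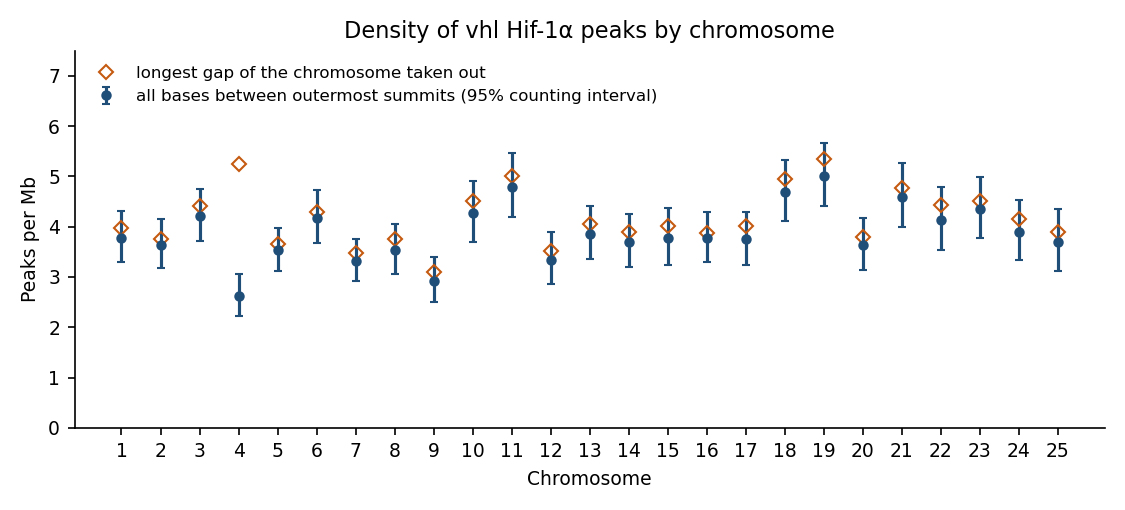
Peaks per Mb on each of the 25 chromosomes in the *vhl* list. Filled points use all bases between the outermost summits and carry exact 95% Poisson intervals, and open diamonds leave out the longest gap of that chromosome; chromosome 4 moves from 2.62, the lowest value, to 5.25.

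Along the chromosomes, the ends were denser than the middle. Each chromosome was divided into 10 equal bins between its outermost summits. The first bins together held 641 peaks and the last 638, whereas the 8 bins between them held from 392 to 577. The density was 4.74 peaks per Mb in the end bins (interval 4.48 to 5.01) and 3.61 in the others (interval 3.5 to 3.73). End bins had more peaks per bin on 22 of the 25 chromosomes, and on 21 when the outermost summits, which lie in the end bins by construction, were left out. Peaks near the ends held fewer tags, with a median of 42 (interval 41 to 43) against 49 (interval 48 to 50). Their median fold enrichment was 27.3 in both groups, and an FDR of at most 5% was given to 75.3% of the end peaks and to 77.7% of the others.

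Neighbouring summits were unevenly spaced. The 5152 gaps had a median of 120 kb (interval 113 to 127) and a mean of 262 kb, and the middle 50% of them ran from 34.2 to 326 kb. The coefficient of variation was 2.12, or 1.44 without the gap of chromosome 4. The next longest gaps were 3.77 Mb on chromosome 7 between summits at 63060252 and 66828647, 3.51 Mb on chromosome 9 between 47047891 and 50561425, 3.51 Mb on chromosome 17 between 38070604 and 41577477, and 3.33 Mb on chromosome 8 between 38217370 and 41546918. In all, 256 gaps were over 1 Mb. By chromosome, the median gap ran from 86.1 kb on chromosome 3 to 181 kb on chromosome 9.

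Counts in windows of 1 Mb showed the same unevenness. The 1338 windows held 3.77 peaks on average, with a variance of 9.74, so the variance was 2.58 times the mean. There were 144 windows with no peak (10.8%), 31 of them on chromosome 4, and 61 with 10 or more (4.56%). The fullest window held 28 peaks, on chromosome 1 between summits at 40084060 and 41001089, which shared 2026 tags. Its peaks had from 24 to 222 tags with a median of 61, so many modest peaks rather than 1 tag-rich peak filled it.

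At short range, 616 of the 5152 gaps (12.0%, interval 11.1 to 12.9%) were of at most 10 kb and 81 (1.57%) of at most 1 kb. As a share of peaks, 1125 of 5177 (21.7%, interval 20.6 to 22.9%) had a neighbour within 10 kb, while 830 (16.0%) had none within 200 kb. Linking summits at most 10 kb apart gave 509 groups: 428 pairs, 66 groups of 3, 11 of 4, 1 of 5, 2 of 6 and 1 of 10. The group of 10 lay at *pfkfb3*, from 24549318 to 24574052 on chromosome 4, and held 3005 tags. All 10 lie in the study's browser view of this gene, although its text counts fewer peaks near the gene. The 2 groups of 6 lay on chromosome 17 from 11173238 to 11204283, with 395 tags, and on chromosome 22 from 11252499 to 11271392, with 353 tags. The group of 5 lay on chromosome 1 from 40843415 to 40855593, inside the fullest window, and held 218 tags. Among these groups of 5 or more, the *pfkfb3* group stood apart in tags as well as in number. Its richest peak had 961 tags and those of the other 3 groups had at most 126. A group of 4 at *egln3* held more, 5517 tags with 2871 in its richest peak.

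A count of summits within 50 kb also put *pfkfb3* at the top. Of all peaks, 2582 had no other summit within 50 kb and 1467 had 1. The most was 9, which 14 peaks shared, namely the 10 at *pfkfb3*, 3 on chromosome 22 with summits at 11270455, 11284111 and 11292542, and 1 on chromosome 1 with its summit at 40816579.

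**Figure D2:**
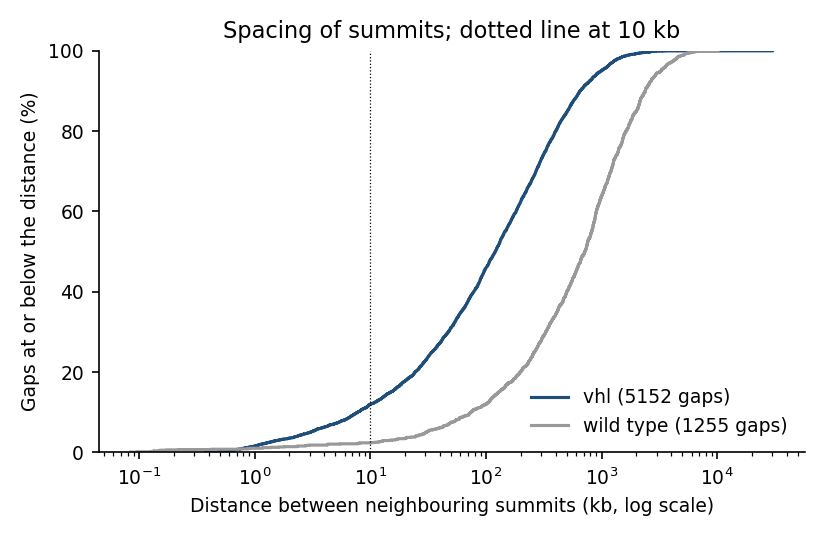
Share of gaps at or below each distance between neighbouring summits, in kb on a log axis, for the *vhl* list (blue, 5152 gaps) and the wild-type list (grey, 1255 gaps). In the *vhl* list 12.0% of gaps were of at most 10 kb (dotted line), against 2.39% in the wild-type list, which has 1280 peaks against 5177.

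The peaks of the closest summits nearly touched. The closest summits were 377 bp apart on chromosome 25, at 31162374 and 31162751, where 25 bp lay between the edges of peaks with 68 and 58 tags. The next pairs were 404 bp apart on chromosome 19 (summits at 24973735 and 24974139, 89 and 27 tags), 418 bp apart on chromosome 24 (17554645 and 17555063, 30 tags each), 467 bp apart on chromosome 1 (24945928 and 24946395, 64 and 45 tags) and 485 bp apart on chromosome 7 (52276935 and 52277420, 62 and 91 tags). None of these 5 pairs had more than 81 bp between the edges, and 40 pairs in the list had at most 100 bp.

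Peaks with a neighbour at 1 to 10 kb held slightly more tags than more isolated ones. The median was 46 tags for the 162 peaks with a summit within 1 kb (interval 42 to 57), 52 for the 963 peaks whose nearest summit was 1 to 10 kb away (interval 49 to 55), 46 for the 2396 peaks at 10 to 100 kb (interval 45 to 48), and 45 for the 1656 peaks farther from any other (interval 44 to 47). The class at 1 to 10 kb was the highest, and its interval lay above those of both more distant classes. The intervals treat peaks as independent, although the peaks of this class lie close to others. The same class had the largest share at an FDR of at most 5%, 81.9%, against 75.8 and 76.1% in the more distant classes. As a description, the tags of neighbours within 10 kb had a Spearman rho of 0.20 over 616 pairs, and those of neighbours over 100 kb apart a rho of 0.04 over 2785 pairs. All pairs come from the same library, and close pairs share their local background.

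Tags were spread unevenly over the peaks. The number of tags in a peak ran from 15 to 2871, with a median of 47 (interval 46 to 48) and a mean of 69.7. The 52 peaks with most tags, 1% of the list, held 8.46% of the tags in peaks. The 10% with most tags (518 peaks) held 34.3% (interval 34.1 to 34.4%), and 1087 peaks (21.0%) held 50% of the tags. The lower 50% of the list held 25%.

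**Figure D3:**
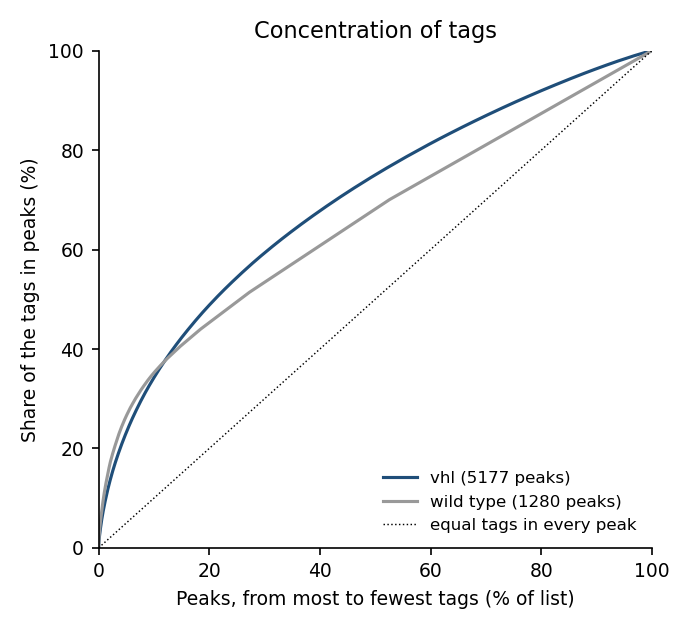
Cumulative share of the tags in peaks (vertical, %) against peaks ordered from most to fewest tags (horizontal, % of the list), for the *vhl* (blue) and the wild-type list (grey). The dotted line is where every peak would hold the same number; in the *vhl* list the first 10% of peaks reach 34.3% of the tags, and the first 10% of the wild-type list reach 35.2%.

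The bulk of the list lay at low counts. From 25 to 49 tags there were 1079 peaks with 25 to 34 and 1553 with 35 to 49, and together with the 166 peaks of 15 to 24 tags they were more than all richer peaks. At 50 to 99 tags there were 1602 peaks, at 100 to 199 there were 544, at 200 to 499 there were 206, and 27 peaks had 500 or more. Those 27 held 5.45% of the tags in peaks. An FDR of at most 5% was given to 5.42% of the peaks with 15 to 24 tags, to 39.7% with 25 to 34, to 77.8% with 35 to 49, to 97.9% with 50 to 99 and to all peaks with 100 or more. The peaks above that limit of FDR were therefore nearly all below 50 tags. The score, from which the caller derives the FDR, followed the tags (Spearman rho 0.90 over the 5177 peaks).

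The 5 peaks with most tags lay at 4 loci. The first was at *egln3* on chromosome 17 from 9796444 to 9803138, with 2871 tags, and the second beside it from 9793395 to 9796409, with 1237. The third was in the *pfkfb3* group from 24559981 to 24561812, with 961 tags, and the fourth on chromosome 25 from 26372469 to 26374082, with 794 tags and outside the regions of the 23 genes. The fifth was the *gapdhs* peak on chromosome 16 from 47903762 to 47905342, with 741 tags. Tags grow with length (rho 0.68), and the *egln3* peaks were also the longest, so tags per kb orders the list differently.

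Tags per kb of peak had a median of 82.4 (interval 81.4 to 83.6), quartiles of 66.6 and 117, and a range from 44.0 to 619. Over the whole list it was only weakly related to length (rho 0.20). Its median was 75.7 to 92.9 in the length classes up to 1000 bp, but 118 at 1001 to 1500 bp and 211 over 1500 bp. Chromosomes differed little, from a median of 74.6 on chromosome 15 to 89.2 on chromosome 4. The densest peak was that of *kdm5c* on chromosome 8 from 38095115 to 38096294, with 619 tags per kb. Then came the peak of the *pfkfb3* group from 24573432 to 24574052 with 576, the tag-rich *pfkfb3* peak with 525, a peak on chromosome 4 from 21454676 to 21456051 with 517, outside the regions of the 23 genes, and the *znf292b* peak on chromosome 20 from 231927 to 233046 with 512. The *egln3* peak with most tags was at rank 33 in tags per kb, at 429.

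The peaks at *egln3* combined many tags with a modest fold enrichment. On chromosome 17, 5 consecutive peaks from 9690440 to 9803138 held 6053 tags, 1.68% of all tags in peaks and 27.9% of those on the chromosome. The first of them lay 89.7 kb before the next and outside the browser view of *egln3*. The 4 peaks in that view held 5517 tags. The 5 consecutive peaks were the 5 longest in the list, from 2532 to 6695 bp, against a median length of 567 bp. Yet their fold enrichment was only 10.3, 24.9, 28.6, 25.6 and 24.1 in order of position, close to or under the list's median of 27.3. The fold enrichment is taken at the summit over the local background, so tags per kb divided by fold enrichment rises with that background and with how flat the peak is. It had a median of 2.96 and a 99th percentile of 5.89 over the list, and in these 5 peaks it was 16.8, 11.4, 6.43, 16.0 and 17.8, which includes the 4 highest values of all 5177 peaks. The peaks on either side, 1436 kb before and 86.5 kb after, had 3.86 and 2.05. The embryos carry the *egln3* locus as a transgene besides their own copies, and the part of the transgene in these values was not tested. The study also reports wild-type peaks around *egln3*, at sites other than those of the mutants. Those wild-type peaks were not compared with the *vhl* peaks here. Without the 5 consecutive *vhl* peaks, chromosome 17 of the *vhl* list falls from 107 to 79.2 tags per peak, between chromosome 4 with 80.9 and chromosome 16 with 79.0.

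Within the peaks, summits lay near the centre. A summit is called central here where it lies between 33.3 and 66.7% of the length of its peak. This held for 4214 of 5177 (81.4%, interval 80.3 to 82.4%), while 9.60% lay before that range and 9.0% after it. In percent of the peak's length its position had a median of 50, quartiles of 42.8 and 57.7 and a range from 12.3 to 87.8. There was no lean to one side, with 2576 summits before the centre and 2582 after it. The median distance from the centre was 40 bp (interval 38.5 to 41), and 3045 summits (58.8%) were within 50 bp. The shorter flank, from the summit to the nearer edge, had a median of 241 bp and was never under 84 bp.

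Summits were most often central in peaks of about the median length. Central summits made up 76.2% in peaks of up to 400 bp (n = 408), 82.6% at 401 to 500 bp (n = 1085), 93.5% at 501 to 600 bp (n = 1638) and 87.0% at 601 to 700 bp (n = 987). It fell to 71.5% at 701 to 800 bp (n = 410), 52.4% at 801 to 1000 bp (n = 412) and 44.2% at 1001 to 1500 bp (n = 199), and was 52.6% in the 38 peaks over 1500 bp. Split at 800 bp, it was 85.9% (interval 84.9 to 86.9%) in the 4528 shorter peaks and 49.9% (interval 46.1 to 53.8%) in the 649 longer ones. Peaks over 800 bp were thus lopsided more often, with a median distance from centre to summit of 205 bp at 1001 to 1500 bp. The shorter flank is capped by the length of the peak, so a rise with length is partly fixed in advance. Its median was 134 bp in peaks of up to 400 bp and 289 bp at 601 to 700 bp. It was 288 bp at 701 to 800 bp, 295 bp at 801 to 1000 bp and 363 bp at 1001 to 1500 bp. Of the 162 peaks with a neighbouring summit within 1 kb, 74.7% had a central summit (interval 67.5 to 80.8%), against 81.6% of all others (interval 80.5 to 82.7%).

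**Figure D4:**
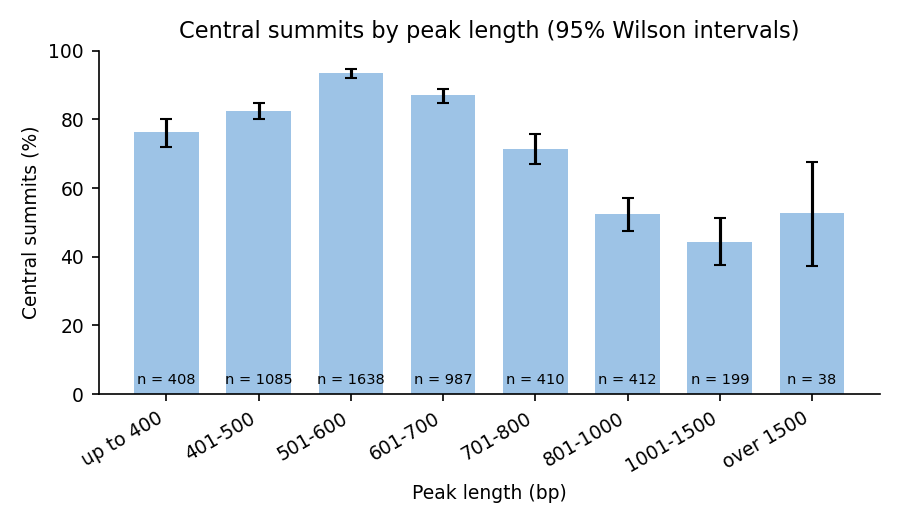
Share of summits that lie between 33.3 and 66.7% of the length of the peak (vertical, %, from 0) by peak length in bp, with the number of peaks in each bar and 95% Wilson intervals. The share is highest at 501 to 600 bp, 93.5%, and 44.2% at 1001 to 1500 bp.

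The 20 regions that the study tested by ChIP-qPCR were selected by it from highly significant peaks of this list that hold a hypoxia response element, so their high counts are given as a description. Each held 1 peak, all 20 had an FDR of at most 5%, where the list has 77.1%, and 15 of them were among the 52 peaks with most tags. Together they held 9692 tags, 2.69% of the tags in peaks. Their tags ran from 303 to 741 with a median of 477, and their tags per kb from 233 to 619 with a median of 398. In 15 of the 20 the summit was central (75%, interval 53.1 to 88.8%), against 81.4% of the whole list. Of the 20, 18 were over 800 bp long, and 49.9% of all peaks over 800 bp had a central summit. A neighbouring summit lay within 10 kb of 10 of the 20 (50%, interval 29.9 to 70.1%), against 21.7% of the whole list.

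Of the genes of glycolysis and sugar metabolism, *gapdhs*, which encodes a glyceraldehyde-3-phosphate dehydrogenase, had 741 tags at 469 tags per kb, with its summit at 74.9% of the length and a weaker neighbour 3.86 kb away. *pfkfb3*, whose product makes an activator of phosphofructokinase, had 595 tags at 469 tags per kb in the peak that was tested, from 24572059 to 24573328, and a summit 0.725 kb from the next. The other 9 peaks of its group had from 39 to 961 tags and from 67.1 to 576 tags per kb, so in tags per kb 1 locus spanned most of the range of the whole list, which runs from 44.0 to 619. *tpi1b* (triosephosphate isomerase, chromosome 16 from 13990325 to 13991714) had 490 tags, and *pkm2a* (pyruvate kinase, chromosome 18 from 724699 to 726438) had 447. *mpi* (mannose phosphate isomerase, chromosome 25 from 3001496 to 3002437) had the fewest of the 5, 402, but in a short peak that brought it to 427 tags per kb, against 257 at *pkm2a*.

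Both genes of collagen hydroxylation had nearly the same tags per kb from unlike peaks. *p4ha1b*, a subunit of collagen prolyl hydroxylase, lay on chromosome 17 from 19995847 to 19997631 with 643 tags over 1785 bp, 360 tags per kb. *plod1a*, a collagen lysyl hydroxylase, lay on chromosome 8 from 50009344 to 50010284 with 341 tags over 941 bp, 362 tags per kb. *p4ha1b* had its nearest other summit 120 kb away and the most lopsided peak of the 20, with its summit at 83.4% of the length. *plod1a* had another summit 0.826 kb away. The fold enrichment of *p4ha1b*, 301, was the second highest of the list.

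Among genes of chromatin, *kdm5c*, a histone lysine demethylase, had 731 tags and was first in tags per kb with no summit nearer than 118 kb, and its summit lay at 26.7% of the length. *h3f3d*, which encodes a replacement histone, lay on chromosome 24 from 39191424 to 39193236 with 525 tags at 290 tags per kb. *jmjd6*, a jumonji-domain oxygenase, lay on chromosome 3 from 61204405 to 61205820 with 330 tags at 233 tags per kb, the lowest of the 20. Both *kdm5c* and *jmjd6*, the latter with no summit nearer than 80.1 kb, lay farther from another summit than the list's median of 49.7 kb. Their tags per kb differed by more than those of any other genes among the 20.

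The genes *znf292b*, *mxi1* and *zmym2* were grouped here as regulators of transcription. By fold enrichment, *znf292b* and *mxi1* were at ranks 1 and 3 of the 5177 peaks, and *zmym2* was at rank 140. *znf292b*, a zinc finger gene, had 573 tags and the highest fold enrichment of all peaks, 317. *mxi1*, which encodes an antagonist of Myc, lay on chromosome 22 from 33019809 to 33020571 with the fewest tags of the 20, 303, yet a fold enrichment of 296, behind only *znf292b* and *p4ha1b* in the whole list. *zmym2*, another zinc finger gene, lay on chromosome 9 from 22492290 to 22494236 in the longest of the 20 peaks (1947 bp), with 487 tags at 250 tags per kb and a fold enrichment of 147, rank 140 in the list. Rank by tags and rank by fold enrichment are therefore far apart for some genes: *mxi1* was at rank 96 by tags and rank 3 by fold enrichment, and *gapdhs* at rank 5 and rank 321.

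The other 7 regions had from 340 tags at *jupa* (plakoglobin, chromosome 11 from 11774698 to 11775565) to 616 at *ap3m2* (a subunit of a vesicle adaptor, chromosome 5 from 16030604 to 16031883). *tnfrsf19* (a receptor of the tumour necrosis factor family, chromosome 15 from 8409623 to 8410635) had 467, *gigfy2* (*gigyf2* in RefSeq, a regulator of translation, chromosome 2 from 48284254 to 48285817) had 510, *prelid1* (a mitochondrial lipid carrier, chromosome 14 from 19963671 to 19964646) had 393 and *si:dkey-14d8.7* (chromosome 4 from 5415742 to 5416776) had 412. *gats* (*castor2* in RefSeq, chromosome 5 from 64424769 to 64425473), at 705 bp the shortest of the 20, had 346 tags at 491 tags per kb, the highest of these 7. *jupa* and *tnfrsf19* each lay in a group of 3 summits and *ap3m2* in a group of 4, while *gats*, *prelid1* and *gigfy2* had no summit nearer than 85.5 kb.

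The remaining 3 genes were placed by primers or browser views. *egln3*, whose product starts the degradation of HIF, had 4 peaks in its view with 5517 tags. The peak its primers lie in, from 9786183 to 9789942, had 690 tags but a score of only 118, 2096th in the list. The study's control region upstream of *egln3* overlapped the neighbouring peak of 719 tags by 51 of its 178 bp, and the other 2 control regions met no peak. *tiparp*, an ADP-ribosyltransferase, had 2 peaks on chromosome 18, from 32941476 to 32942768 with 345 tags and from 32944352 to 32945088 with 155. *mir22a-1*, a microRNA gene, had 1 on chromosome 15 from 24259924 to 24260671 with 107 tags at 143 tags per kb, 691st by tags. Of the 23 genes, *mir22a-1* had the fewest tags in its richest peak.

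**Figure D5:**
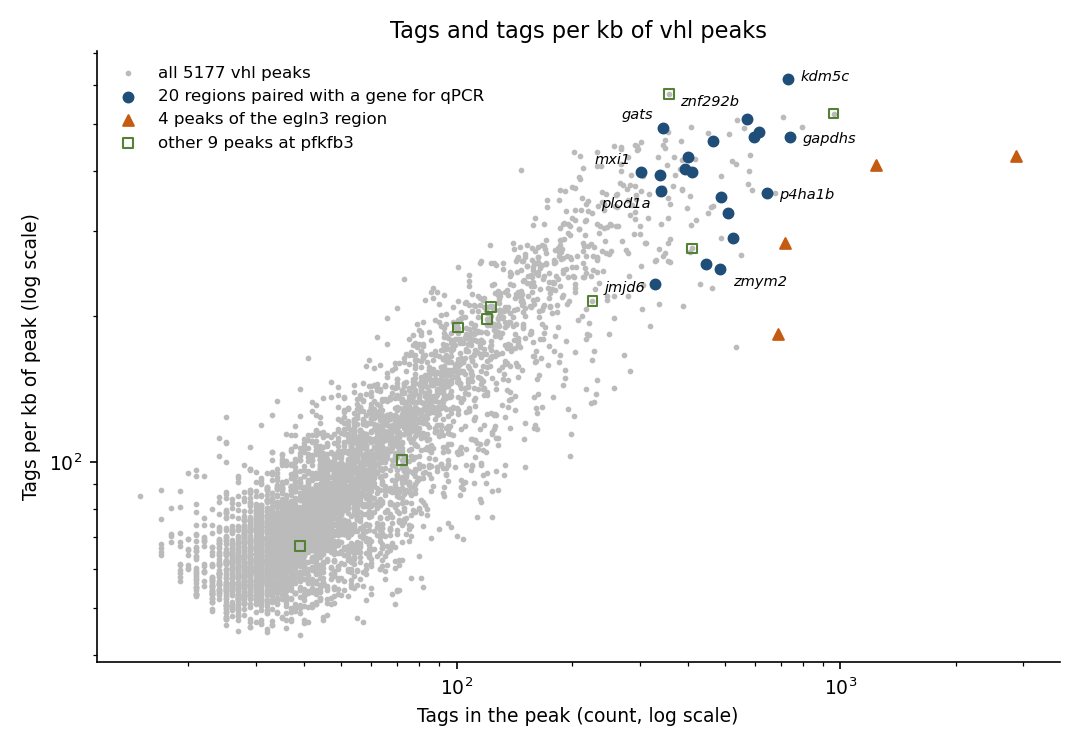
Tags per kb against tags of each *vhl* peak, both on log axes. Grey points are all 5177 peaks, blue points the 20 regions tested by ChIP-qPCR (303 to 741 tags), green squares the other 9 peaks at *pfkfb3* (39 to 961 tags) and orange triangles the 4 peaks at *egln3*, at 184 to 429 tags per kb.

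Beside the wild-type list, the *vhl* list had more closely spaced and more central summits, and a like share of tags in its richest 10% of peaks. The 10% of peaks with most tags held 34.3% of the tags in peaks in *vhl* and 35.2% (interval 34.4 to 36.1%) in wild-type. The summit was central in 81.4% of *vhl* and 54.1% (interval 51.4 to 56.9%) of wild-type peaks. The median tags per kb was 82.4 in *vhl* and 69.0 in wild-type, and the median gap 120 and 718 kb. The *vhl* list has 5177 peaks and the wild-type list 1280 over the same chromosomes. A larger list on the same chromosomes has shorter gaps, and spacing beyond the number of peaks was not tested. Many wild-type peaks held only 6 tags, the fewest of that list, whereas *vhl* peaks held at least 15, with a median of 47. The study reports that wild-type peaks were also shorter on average. The shares and tags per kb of the 2 lists therefore come from unlike peaks. The caller modelled a fragment length of 110 bp for *vhl* and 34 bp for wild-type, and the *vhl* ChIP library was the deeper one, so with 1 library each the genotype cannot be told apart from these differences.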

How the data were processed

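Chromatin of *vhl* and wild-type embryos was sequenced by the authors, 1 ChIP and 1 input library per genotype. Per the submitters' processing notes, the tools were CASAVA 1.8.2, MACS 1.4.2 and bedtools, and the build was Zv9 (danRer7). Per the file headers, the p-value limit for a peak was 1e-05, the effective genome size 1.41e+09 and the local background that of 1000 and 10000 bp. The authors deposited for each peak its position, a count of tags after removal of duplicates, a score (the −log10 of the p-value times 10), a fold enrichment as a ratio to the local background, and an FDR in percent. Tag counts are not scaled between libraries. The local background enters the fold enrichment and score, not the tags.

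Coordinates are 1-based. Density used bases between outermost summits, because chromosome lengths of Zv9 were not at hand. Shares carry Wilson, densities exact Poisson and medians order-statistic intervals. Gene windows from the study's primer list and browser views were matched to peaks by at least 1 bp. Genes named are those with genome coordinates in the study's primer list or browser views, not those it ties to peaks only by distance or in words, and peaks named are the 5 richest in tags, the 5 richest in tags per kb, those at the 5 longest gaps and 5 closest pairs of summits, and those with most summits within 50 kb (14, because of ties). Other groups, windows and the 5 consecutive peaks of chromosome 17 were singled out after values were seen. The list and all choices were made with earlier results of these data known. Alternatives were limits on score, FDR and fold enrichment, merging of close peaks, other distances and denominators, and leaving out *egln3*. Functions were tested on simulated data. Calculations ran in Python 3.11.15 with scipy 1.17.1, pandas 2.3.3 and numpy 2.4.6, and plots in matplotlib 3.10.9. Wild-type peaks were used only for side-by-side values. Promoters and the bases at summits, which need the Zv9 sequence, were not analysed here. The study's own list of *vhl* peaks that hold the core motif near the summit was not used either.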

Additional observations from a re-analysis of the deposited data

How the results depend on the processing

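With 1 list of peaks, the values depend on the limit for a peak. At a score of at least 100 (2481 peaks), an FDR of at most 5% (3990) and a fold enrichment of at least 20 (3929), in that order, density was 1.85, 2.96 and 2.92 peaks per Mb, the median gap 295, 159 and 169 kb, the share of summits with a neighbour within 10 kb 15, 19.4 and 18.4%, the tags in the richest 10% of peaks 31.2, 33.2 and 33.9%, and the median tags per kb 119, 93.8 and 94.0. The share of central summits kept within its interval under the limits on score and FDR and was 84.0% under that on fold enrichment. Merging peaks within 1 kb (5012 left) gave 3.72 peaks per Mb, a median gap of 128 kb, 16.7% with a neighbour, 35.1% of tags in the richest 10% and 79.6% central summits. Leaving out the *egln3* region moved only the share of tags, to 33.4%. Ranking by tags per kb gave 32.4%. Distances of 5 and 20 kb gave 13.6 and 30.8% of summits with a neighbour, and the central 20% of the length held 61.3% of summits. Among alternatives chosen after seeing the data, density without each chromosome's longest gap was 4.12 per Mb, and the tags in the richest 10% without the 5 peaks of chromosome 17 were 33.3%. All other settings stayed within the intervals. Each rule found all 20 gene regions, but the study had selected these from highly significant peaks. Their lowest score was 1313 and their lowest fold enrichment 104. The limits on score, FDR and fold enrichment could therefore not remove any of them. The causes of these shifts were not tested beyond the number of peaks left. No paired analysis was possible because there is 1 library of each kind. At the weak end of the list few peaks under 25 tags had an FDR of at most 5%, and the part of depth in this was not tested.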
